A study of Mus musculus with 4 samples.

Results

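The enzymes that carry tryptophan through kynurenine toward quinolinate and NAD were followed in the liver and the duodenum of mice, wild type or transgenic for a constitutively activated aryl hydrocarbon receptor (CA-AhR). The members were 10 genes fixed by name, namely Tdo2, Ido1, Ido2, Afmid, Kmo, Kynu, Haao, Acmsd, Qprt and Aadat, and every probe set that the platform annotation assigns to them was taken. Of these genes 9 had a probe set, 16 probe sets in all, out of 18194 genes and 45101 probe sets on the array. Acmsd, whose enzyme diverts the pathway away from quinolinate, had none and was not analysed here. The groups were wild-type liver, CA-AhR liver, wild-type duodenum and CA-AhR duodenum, all from female mice aged 5 to 6 weeks on standard chow with free access to food and water. Tissue of 3 mice was pooled for each RNA, and each pool was hybridised to 1 Affymetrix Mouse Genome 430 2.0 array. The sources used here do not give the strain, the promoter that drives the transgene or the number of transgenic lines. With 1 array per group there is no replicate check, so values carry no error and no test was made.

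Most dietary tryptophan that is not used for protein is opened at its indole ring to N-formylkynurenine. Tryptophan 2,3-dioxygenase (Tdo2) does this in hepatocytes, and the indoleamine 2,3-dioxygenases (Ido1, Ido2) catalyse the same step. Kynurenine formamidase (Afmid) then gives kynurenine, which is hydroxylated by Kmo, cleaved by Kynu, and taken by Haao and Qprt toward NAD, or transaminated to kynurenic acid by Aadat and its relatives. Kynurenine and kynurenic acid can act as ligands of AhR, a transcription factor that dimerises with ARNT and binds DNA elements with a GCGTG core. In the liver the full set of enzymes supports NAD synthesis, and in the gut IDO1 is known as an enzyme induced by interferon gamma.

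Signals are MAS5 intensities on a linear scale, 1 per probe set and array. A signal under 129.3 was treated as not measured, a floor set at the 40th percentile of the non-control signals of each array and averaged over the 4 arrays. Ratios were taken after raising lower signals to the floor, so a ratio with 1 array under it is a bound, written as "at least". Each gene takes the value of its brightest probe set, judged by the average log2 signal on the 4 arrays, and a ratio of 1.5-fold or more is counted as higher or lower. As a check of the transgene, Cyp1a1, the classical AhR target, stood in CA-AhR against wild type at 47625.8 against 1403.5 in liver and 20795.8 against 2109.5 in duodenum. The median signal lay between 167.7 and 229.3 over the arrays. For Gapdh, the 3′ signal over the 5′ signal, which depends on RNA integrity, was 0.608 to 1.03 on 3 arrays and 3.07 on the CA-AhR duodenum array. The spiked hybridization controls had a median log2 ratio of -0.68 in CA-AhR over wild-type liver (18 probe sets, SD 0.16), and 0.05 for the duodenum pair. Hepatocyte markers were present as labelled, with 9 of 9 measured markers higher in wild-type liver than in wild-type duodenum and 9 of 9 enterocyte markers lower.

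**Figure D1:**
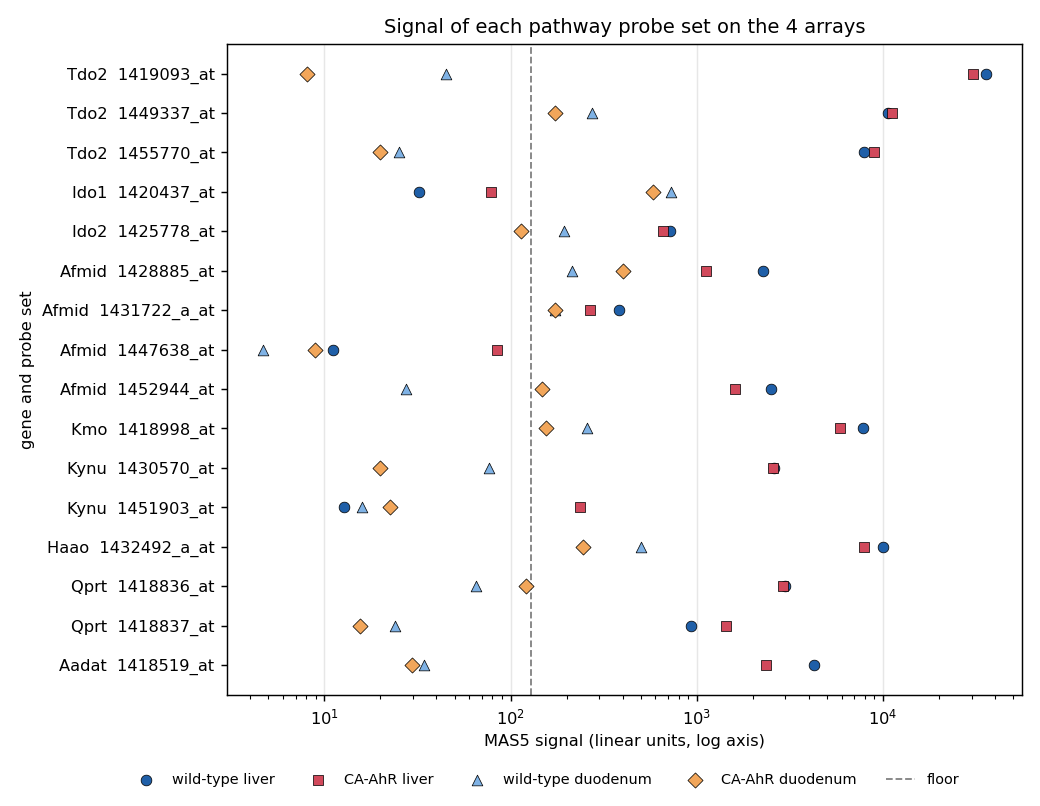
MAS5 signal (log axis) of each of the 16 probe sets on the 4 arrays, 1 point per array, with the floor of 129.3 as a dashed line. Both liver arrays lie far to the right of both duodenum arrays for Tdo2, Kmo, Haao and Aadat, whereas for Ido1 the duodenum arrays, at 728.9 and 580.4, lie above the liver arrays.

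The first comparison asked where the pathway is expressed in the wild type. Of the 9 genes, 8 were 1.5-fold or more higher in wild-type liver than in wild-type duodenum, where 21.9% of 14919 genes were higher, and 1 was lower, against 32.5% of genes. The median log2 ratio of wild-type liver over wild-type duodenum was 4.33 for the 9 genes and -0.18 for all genes. The lower gene was Ido1. Each ratio compares 1 probe set between arrays, since signals of different probe sets are not on a common scale.

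Tdo2, the hepatic enzyme that commits tryptophan to the pathway, was read by 3 probe sets. The brightest in liver, 1419093_at, gave 35968.4 in wild-type liver, 30369.8 in CA-AhR liver, 44.9 in wild-type duodenum and 8.1 in CA-AhR duodenum. Both livers were thus high and both duodena under the floor, and liver was at least 278-fold higher in the wild type. Probe set 1455770_at gave 7971.5, 8982.3, 25.2 and 19.8 in the same order, at least 61.7-fold higher in wild-type liver. The third, 1449337_at, which represents the gene, gave 10635.7, 11160.6, 275 and 172.3, a 38.7-fold difference between the wild-type tissues. This probe set alone stood above the floor in duodenum, so a duodenal signal was read on 1 of 3 Tdo2 probe sets. Whether that signal came from a Tdo2 transcript was not tested.

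Ido1, which catalyses the same step outside the liver, had the opposite pattern. Its only probe set gave 32.1 in wild-type liver and 78.4 in CA-AhR liver, both under the floor, and 728.9 and 580.4 in wild-type and CA-AhR duodenum. Wild-type duodenum was at least 5.64-fold higher than wild-type liver. Ido2, a paralog of low activity toward tryptophan that is the next gene to Ido1 on chromosome 8 in the RefSeq gene table, did not share this pattern. It gave 716.3 in wild-type liver, 657.9 in CA-AhR liver, 193.5 in wild-type duodenum and 113.4 in CA-AhR duodenum. Ido2 was therefore 3.70-fold higher in wild-type liver than in wild-type duodenum, and its lowest value was under the floor.

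The enzymes after ring opening were higher in wild-type liver throughout. Kmo, the mitochondrial kynurenine hydroxylase, gave 7841.9 and 5892.4 in wild-type and CA-AhR liver and 259 and 154.4 in wild-type and CA-AhR duodenum, a 30.3-fold tissue difference in the wild type. Haao, which makes the precursor of quinolinate, gave 10046.9 and 7934.8 in liver and 504.1 and 244.3 in duodenum, a 19.9-fold difference. Both genes were above the floor on all 4 arrays.

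Aadat, an aminotransferase that makes kynurenic acid, gave 4273.2 and 2361.1 in liver and 34.1 and 29.4 in duodenum, at least 33.0-fold higher in wild-type liver. Kynu, kynureninase, gave 2608.5 and 2564 in liver on its brighter probe set and 76.3 and 19.9 in duodenum, at least 20.2-fold higher. Qprt, the phosphoribosyltransferase that turns quinolinate into nicotinate mononucleotide, gave 2970.6 and 2894.4 in liver and 65.2 and 121.5 in duodenum, at least 23.0-fold higher. For Aadat, Kynu and Qprt both duodenum arrays were under the floor, so no genotype comparison could be made there.

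Afmid was read by 4 probe sets that differed in tissue contrast. Wild-type liver exceeded wild-type duodenum 10.7-fold on 1428885_at (2269.8 against 212.8), at least 19.4-fold on 1452944_at (2503.8 against 27.3) and 2.22-fold on 1431722_a_at (383.5 against 173). The fourth, 1447638_at, was under the floor on all 4 arrays, between 4.7 and 84.7. The direction was the same on the 3 measured probe sets.

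Genes that looked most like Tdo2 and Ido1 over the 4 arrays were searched among 14077 others, by the root mean square distance of log2 signals raised to the floor and centred on each gene's mean. The nearest to Tdo2 were Gulo, of vitamin C synthesis, at 0.10 log2 units, Aldh8a1, an aldehyde dehydrogenase that oxidises 2-aminomuconic semialdehyde within tryptophan breakdown, at 0.14, F2, prothrombin, at 0.15, Serpina10 at 0.17 and Cpn2 at 0.20. The nearest to Ido1 were Slc16a9 and Ptpre at 0.03, Myb at 0.03, Gm3336 at 0.03 and Ankrd9 at 0.04. These distances describe 4 arrays, of which both liver arrays were under the floor for Ido1.

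The second comparison addressed the genotype in liver, where AhR was constitutively active. Of the 9 genes, 8 were above the floor on both liver arrays. None of the 8 was 1.5-fold or more higher in CA-AhR liver, against 13.5% of 13952 genes, and 2 of 8 were lower, against 12.1% of genes. At 2-fold, 0 were higher, against 4.72% of genes, and 1 was lower, against 3.6% of genes. The 2 lower genes were Afmid and Aadat. The median log2 ratio of the 8 genes was -0.23 and that of all genes 0.01.

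Tdo2 differed little between the livers. The 3 probe sets gave log2 ratios of CA-AhR over wild type of -0.24, 0.07 and 0.17, with signals from 7971.5 to 35968.4, so their signs differed and none reached 1.5-fold. Ido2 was at a log2 ratio of -0.12 in CA-AhR liver (657.9 against 716.3). On the spiked control scale Tdo2 was at 0.80 and Ido2 at 0.61, against a median of 0.70 over all genes. For comparison, where 2 probe sets of the same gene were both at 1000 or more in liver, their log2 ratios differed by a median of 0.21 over 1007 genes, and by 0.52 at the 90th percentile. The Tdo2 probe sets lie within that range of each other.

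Afmid was the lowest of the members in CA-AhR liver. Its probe set 1428885_at went from 2269.8 in wild-type to 1127.2 in CA-AhR liver, 2.01-fold lower, at a log2 ratio of -1.01. Probe set 1452944_at gave 2503.8 and 1614.2, 1.55-fold lower, and 1431722_a_at gave 383.5 and 266.7, 1.44-fold lower. The 3 measured probe sets thus pointed the same way, with a mean log2 ratio of -0.72. The probe set that lay under the floor gave 11.1 and 84.7, and with it in a mean over log2 signals of all 4 the gene was at 0.19.

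Aadat went from 4273.2 to 2361.1 on its only probe set, 1.81-fold lower in CA-AhR liver, at a log2 ratio of -0.86. Only 5.4% of genes had a lower ratio, and for Afmid 3.5%. On a scale set by the spiked controls, Afmid was at -0.28 and Aadat at -0.13 in liver, both short of 1.5-fold. That scale put the median log2 ratio of all genes in liver at 0.70, with 59.5% of genes higher and 2.8% lower, and both genes lay under that median.

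Kmo was 1.33-fold and Haao 1.27-fold lower in CA-AhR liver, neither past 1.5-fold. On the spiked control scale their log2 ratios were 0.32 and 0.39, both under the median of 0.70 over all genes. Kynu was at 1.02-fold lower on its brighter probe set, but its other probe set, 1451903_at, gave 12.7 in wild-type and 236.7 in CA-AhR liver, at least 1.83-fold higher. That probe set was under the floor on every other array, at 15.9 and 22.6 in wild-type and CA-AhR duodenum. The probe sets of Kynu therefore disagreed, and the bright one read no difference. Qprt likewise gave 1.03-fold lower on 1418836_at (2894.4 against 2970.6) and 1.53-fold higher on 1418837_at (1433.7 against 937.9).

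**Figure D2:**
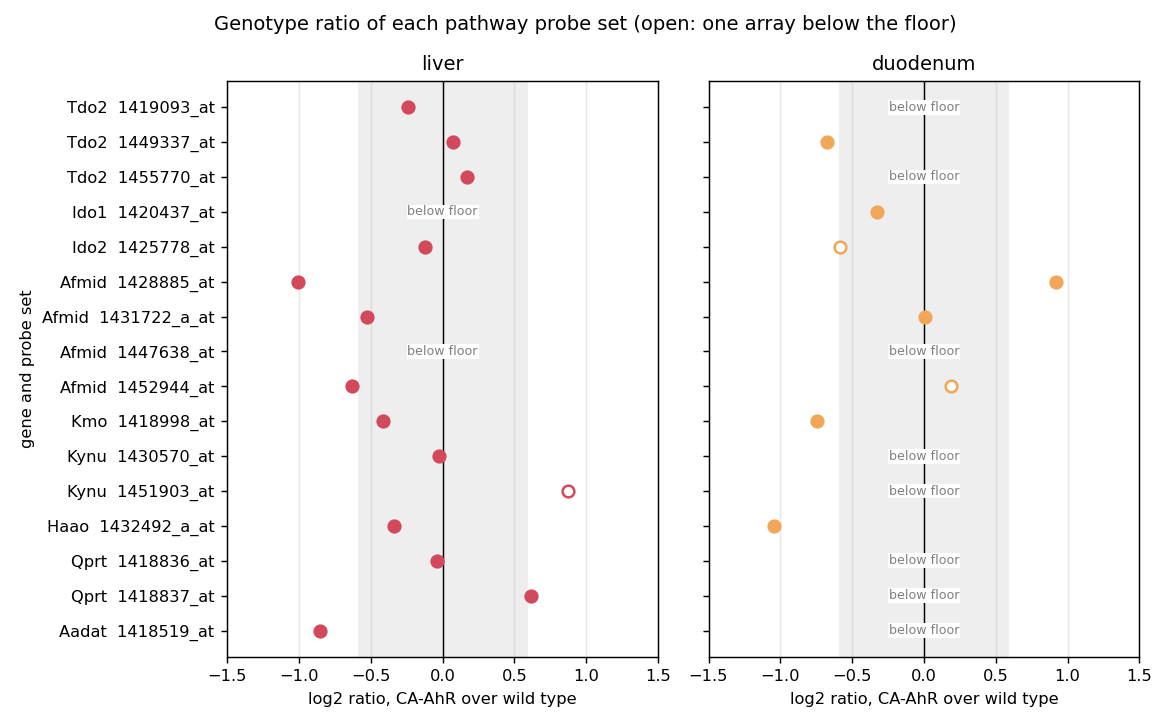
Log2 ratio of CA-AhR over wild type for each of the 16 probe sets in liver and duodenum, 1 ratio of 2 arrays per point. Open points are bounds, the grey band is less than 1.5-fold, and probe sets under the floor on both arrays carry no point. The 3 measured Afmid probe sets are left of 0 in liver, between -1.01 and -0.52, and at or right of 0 in duodenum.

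Hepatocyte markers were read beside these values. Of 9 measured in liver, 2 were lower and 0 higher in CA-AhR liver, against 12.1% and 13.5% of all genes. Their median log2 ratio was -0.50, and their summed signal was 573912 in wild-type and 418132 in CA-AhR liver. No marker was at 0, and all 9 were above the floor on both arrays. Stellate cell and fibroblast markers were higher in 7 of 7 cases (median 1.86, summed signal 7572.3 and 23658.7), with none at 0 and all above the floor on both arrays. In pooled tissue, fewer cells of a type and less RNA per cell cannot be told apart, and the part of these shifts in the ratios of Afmid, Aadat, Kmo and Haao was not tested.

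**Figure D3:**
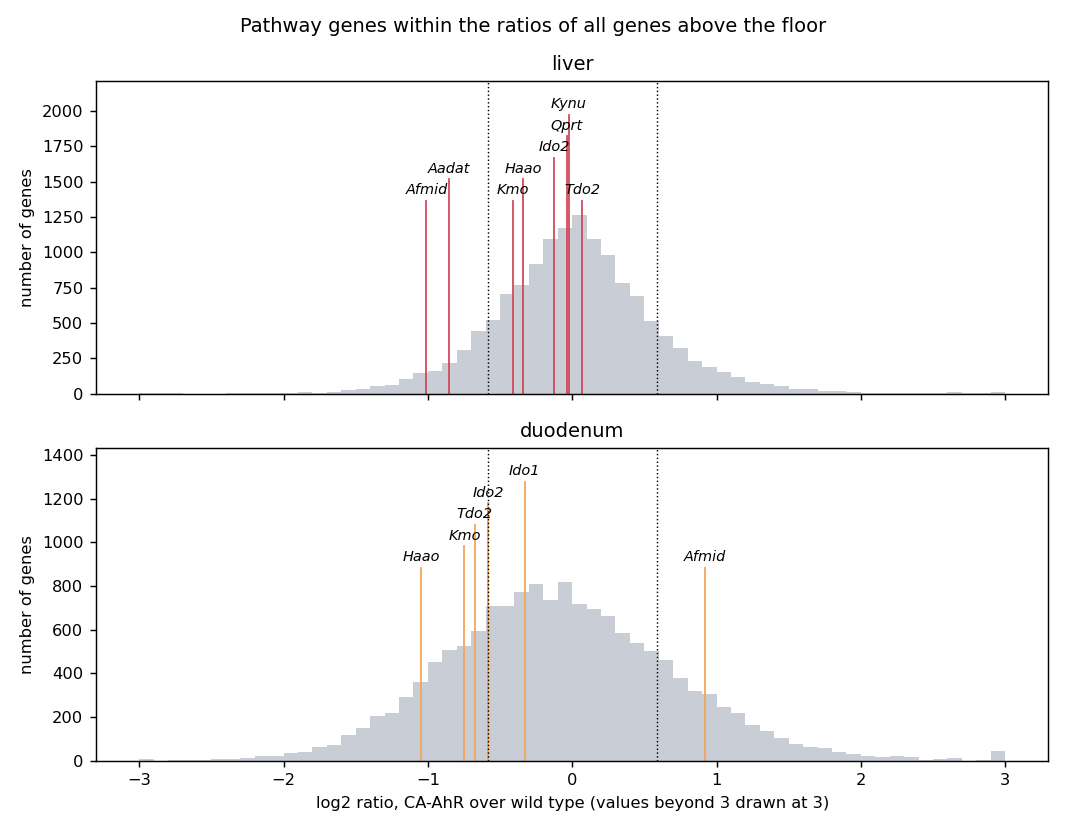
Distribution of the log2 ratio of CA-AhR over wild type over all genes above the floor on 1 or both arrays, in liver (13952 genes) and duodenum (14721 genes), with each member drawn as a line. Dotted lines mark 1.5-fold, and ratios beyond the axis range are drawn at its end. In liver only Afmid and Aadat lie beyond them, and in duodenum Haao, Kmo and Tdo2 lie beyond the lower line and Afmid beyond the upper one, with Ido2 at the lower line.

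The genomic sequence before the gene start was available for 7 of the 10 genes from RefSeq (GRCm38.p6), as windows of 250 bases before to 50 after the start. The AhR element core GCGTG, searched on both strands, occurred in 3 of the 7 windows (Tdo2, Haao and Acmsd), and in 32.4% of 32817 windows of all genes. The longer form TNGCGTG, which contains the core, occurred in 0 of 7, and in 5.06% of all windows. The AhR targets Cyp1a1 and Cyp1a2 were searched in the same way. The window of Cyp1a1 held 1 core and that of Cyp1a2 held 0, and neither held the longer form. A match is a description of the letters, and no match says nothing of sites outside the window. The 250 bases before the start are shown 5′ to 3′ in the direction of the gene for Tdo2 (chr3:81975729-81975978, minus strand) and Haao (chr17:83846791-83847040, minus strand), which hold a core there, and for Aadat (chr8:60505874-60506123, plus strand) and Afmid (chr11:117825669-117825918, plus strand), the members that were lower in CA-AhR liver. Capitals mark the core, which reads CACGC where it lies on the opposite strand.
Tdo2: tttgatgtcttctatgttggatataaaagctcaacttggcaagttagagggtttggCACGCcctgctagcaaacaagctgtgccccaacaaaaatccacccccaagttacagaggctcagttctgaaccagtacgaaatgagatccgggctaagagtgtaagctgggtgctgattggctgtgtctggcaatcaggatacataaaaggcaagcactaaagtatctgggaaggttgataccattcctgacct
Haao: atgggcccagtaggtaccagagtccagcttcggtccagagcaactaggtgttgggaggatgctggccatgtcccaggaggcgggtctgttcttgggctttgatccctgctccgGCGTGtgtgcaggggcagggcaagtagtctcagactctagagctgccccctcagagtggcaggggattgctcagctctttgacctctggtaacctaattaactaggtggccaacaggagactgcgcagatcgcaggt
Aadat: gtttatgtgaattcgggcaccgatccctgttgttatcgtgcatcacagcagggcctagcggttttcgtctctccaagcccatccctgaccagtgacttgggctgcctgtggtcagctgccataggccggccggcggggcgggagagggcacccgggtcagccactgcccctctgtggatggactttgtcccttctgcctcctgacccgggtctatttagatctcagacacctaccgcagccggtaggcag
Afmid: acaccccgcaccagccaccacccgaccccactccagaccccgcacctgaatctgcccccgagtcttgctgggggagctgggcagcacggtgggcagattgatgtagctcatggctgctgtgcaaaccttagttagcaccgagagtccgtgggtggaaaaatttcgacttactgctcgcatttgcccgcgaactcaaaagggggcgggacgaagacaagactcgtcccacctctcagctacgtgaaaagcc
The core begins 194 bases before the start in Tdo2 and 137 bases before it in Haao.

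The third comparison addressed the genotype in duodenum. Here 6 of the 9 genes were above the floor on 1 or both arrays, 5 of them on both. Of the 6, 1 was 1.5-fold or more higher in CA-AhR duodenum, against 19.2% of 14721 genes, and 3 were lower, against 25.9% of genes. At 2-fold 0 were higher and 1 was lower, against 8.74% and 11.1% of genes. The median log2 ratio was -0.63 for the 6 genes and -0.11 for all genes.

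Haao was the lowest, at 504.1 in wild-type and 244.3 in CA-AhR duodenum, 2.06-fold lower, at a log2 ratio of -1.05. Under each scaling and floor tried it was 1.5-fold or more lower, from -1.05 to -0.59; its only probe set can match several transcripts. Kmo was 1.68-fold lower (154.4 against 259), and Tdo2 1.60-fold lower on the probe set that stood above the floor (172.3 against 275). Both CA-AhR values lay near the floor. With quantile normalization Kmo was at -0.31 and Tdo2 at -0.25, against a median of 0.04 over all genes. With each array scaled to its median they were at -0.30 and -0.22, against 0.30 over all genes. As deposited the median of all genes was -0.11. These 2 calls were thus lost with the scaling, while both genes stayed under the median of all genes. Of the other Tdo2 probe sets, both were under the floor on both duodenum arrays. With the brightest probe set picked after raising to the floor, Tdo2 was therefore not tested in duodenum.

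Ido1, the member most abundant in duodenum relative to liver, was 1.26-fold lower in CA-AhR duodenum (580.4 against 728.9), short of 1.5-fold, and 38.6% of genes had a lower ratio. With each array scaled to its median Ido1 was at a log2 ratio of 0.12, against a median of 0.30 over all genes. Ido2 gave 113.4 against 193.5, with the lower value under the floor, a bound of -0.58 on the log2 scale that falls just short of the call. With the floor at the 20th percentile it was at -0.77.

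Afmid was the member that was higher. It gave 402 in CA-AhR against 212.8 in wild-type duodenum on 1428885_at, 1.89-fold higher, while 1431722_a_at gave 173.6 against 173 and 1452944_at gave 147.2 against 27.3, at least 1.14-fold higher. The size thus rested on 1 probe set, and the mean over the 3 was 0.37. Among genes in duodenum with 2 probe sets above the floor on both arrays, the log2 ratios of the pair differed by a median of 0.62 over 4663 genes, against 0.32 over 4719 genes in liver.

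The calls in duodenum depended on the scaling as a whole. All genes split into 19.2% higher and 25.9% lower as deposited, 23.2% and 19.4% after quantile normalization, and 36.0% and 11.6% with each array scaled to its median, which moved the median log2 ratio of all genes to 0.30. Tissue and cell type markers also differed between the duodenum pools. Whether tissue content differed was not tested. Exocrine pancreas markers were higher in 8 of 8 measured cases, with a summed signal of 1833 in wild-type and 84764 in CA-AhR duodenum, and Brunner gland and stomach markers in 6 of 7, at 3685 and 159087. None was at 0 on either array, and 4 of 8 pancreas markers were above the floor in wild-type duodenum against 8 of 8 in CA-AhR duodenum. For enterocytes 5 of 9 markers were higher and 0 lower (median 0.76), and for T and NK cells 4 of 9 were lower and 0 higher (median -0.34). Their part in the values of Haao, Kmo, Ido1 and Afmid was not tested, nor was that of the higher Gapdh 3′/5′ ratio on this array.

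Across tissues, 5 genes could be compared in both. The log2 ratio in liver minus that in duodenum was -1.93 for Afmid, 0.74 for Tdo2, 0.70 for Haao, 0.46 for Ido2 and 0.33 for Kmo. Afmid was the only one of the 5 whose ratios were past 1.5-fold in opposite directions, and 4.83% of the 12996 genes measured in both tissues were so opposed. With 1 array per group these differences could not be tested.

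Enzymes of the kynurenine branch outside the members were listed next. In liver 2 of 12 were lower in CA-AhR and 0 higher, against 12.1% and 13.5% of all genes (median log2 ratio -0.35). On the spiked control scale this median was 0.38, against 0.70 for all genes. Single genes of this list and of those that follow are given on the deposited scale only. Kyat1, a kynurenine aminotransferase that also acts on cysteine conjugates, was 1.85-fold lower (474.9 against 879.7), 1.80-fold lower on a second probe set and 1.01-fold lower on the third measured one. Pdxk, which makes the pyridoxal phosphate that Kynu and the aminotransferases need, was 1.54-fold lower (1513 against 2331.7). Kyat3, the related aminotransferase, was 1.29-fold lower at 8950.7 against 11513.3, and the 2 highest were Dlst, a dehydrogenase complex subunit, at 1.26-fold higher, and Echs1, an enoyl-CoA hydratase, at 7064.5 against 7070.2.

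In duodenum the same list had 3 higher and 2 lower of 11, against 19.2% and 25.9% of all genes. The median was 0.37, turning to -0.23 without multi-transcript probe sets and with the mean ratio over measured probe sets. Pdxk was 2.28-fold higher (3554.8 against 1560) and Ogdh, of the oxoglutarate dehydrogenase complex, 1.63-fold higher. Echs1 was 1.82-fold lower and Gcdh, glutaryl-CoA dehydrogenase, 1.20-fold lower. Pdxk, like Afmid, was lower in CA-AhR liver and higher in CA-AhR duodenum.

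NAD can also be made from nicotinamide, nicotinate and the riboside without the kynurenine route. Of 17 genes of NAD salvage and use in liver, 3 were higher and 4 lower in CA-AhR. The shares of all genes were 13.5% and 12.1%, and the median of the list was -0.19. On the spiked control scale this median was 0.54, against 0.70 for all genes. Nampt, the rate-limiting enzyme of nicotinamide salvage, was 1.67-fold lower (1047.1 against 1745), and its other probe sets were 1.45-fold and 1.84-fold lower. Nmrk1, nicotinamide riboside kinase, was 2.74-fold lower (143.4 against 393.6) and 2.24-fold lower on a second probe set, but 1.36-fold higher on the third. The highest were Nnmt, which methylates nicotinamide, at 8737.6 against 4258.6 (2.05-fold higher), and Aox1, an aldehyde oxidase that oxidises methylated nicotinamide, at 3702.4 against 1828.5 (2.02-fold). Each of these was read by 1 probe set. Nadsyn1, the last enzyme of NAD synthesis from quinolinate, was 1.14-fold lower.

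In duodenum 4 of 17 of these genes were higher and 5 lower, near the 19.2% and 25.9% of all genes (median -0.27). With each array scaled to its median this value was 0.14, against 0.30 for all genes. Nampt was 1.82-fold lower there too (1120.3 against 2043.7), and 2.80-fold and at least 2.85-fold lower on its other probe sets. All 3 Nampt probe sets were thus lower in CA-AhR in both tissues on the deposited scale. Their liver ratios on the spiked control scale, where the median of all genes was 0.70, are not given here. Nadk2, the mitochondrial NAD kinase, was 8.34-fold lower (555.1 against 4627.9), and its other probe sets were 5.92-fold, 2.81-fold and 1.62-fold lower. Sirt3, a mitochondrial NAD-dependent deacetylase, was 2.08-fold lower. The highest were Slc22a13, an organic anion transporter that carries nicotinate, at 2.79-fold higher, and Nnt, a transhydrogenase, at 1.66-fold higher on 1 probe set and 1.19-fold lower on another.

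Other routes of tryptophan were measured alongside. In liver 1 of 9 genes was higher and 2 were lower in CA-AhR, against 13.5% and 12.1% of all genes (median -0.30). On the spiked control scale this median was 0.43, against 0.70 for all genes. Il4i1, an amino acid oxidase that turns tryptophan into indole-3-pyruvate, was 2.64-fold lower in CA-AhR liver (370.1 against 977.4) and 4.21-fold lower in CA-AhR duodenum (182.3 against 766.6), on its only probe set. Inmt, an indolethylamine N-methyltransferase, was 2.18-fold lower in liver (9898.2 against 21584.9). Ddc, the aromatic amino acid decarboxylase, was 1.64-fold higher in liver, and Aanat 1.20-fold higher. In duodenum 2 of 11 were higher and 2 lower, against 19.2% and 25.9% of all genes. The median was 0.11, and between -0.35 and 0.56 over the settings. Tph1, the gut enzyme that starts serotonin synthesis, was 1.67-fold lower (183 against 305.2). Wars, the cytosolic tryptophanyl-tRNA synthetase, was 2.36-fold higher on its brightest probe set, 2.69-fold higher on another, and 1.18-fold lower on one that was dimmer. Aldh2, an aldehyde dehydrogenase, was 2.26-fold higher, with its other probe sets 2.08-fold, 3.49-fold and at least 1.11-fold higher and 1.64-fold lower.

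Of 11 transporters of tryptophan and kynurenine, 6 were higher in CA-AhR duodenum, against 19.2% of all genes, and 2 lower, against 25.9% (median 0.78, and 0.40 with the mean ratio over measured probe sets). Enterocyte markers, 5 of 9 at a median of 0.76, and pancreas markers, 8 of 8, were also higher in this pair. The part of tissue content in the transporter values was not tested. Slc3a2, the heavy chain that pairs with amino acid exchangers, gave 14970.9 against 4570.3, 3.28-fold higher, and Slc7a8, one of its light chains, gave 2450.8 against 1132.5, 2.16-fold higher. Slc6a19, the main neutral amino acid transporter of the brush border, was 1.43-fold higher (13718.4 against 9622.4) with its other probe set at a log2 ratio of 0.58, and neither reached 1.5-fold. The 2 lower ones, Slc36a4 (103.6 against 263.1, at least 2.03-fold) and Cltrn (37.8 against 265.2, at least 2.05-fold), were under the floor in CA-AhR duodenum and were named after their values were seen. The lowest above the floor on both arrays were Slc7a9, a cystine transporter light chain, at 1.16-fold higher, and Slc7a6 at 1.19-fold higher. In liver 1 of 9 was higher and 0 lower, against 13.5% and 12.1% of all genes (median 0.23). The higher one was Slc7a9 (306.7 against 164.9), with its partner Slc3a1 at 1.42-fold higher, Slc6a19 at 1.34-fold lower and Slc7a8 at 1.22-fold lower.

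Genes of the known inducers of the first step were also read. Of 15 interferon gamma response genes, a group in which Ido1 is usually counted, 5 were lower in CA-AhR liver and 0 higher. The shares of all genes were 12.1% and 13.5%, and the median of the group was -0.40. On the spiked control scale this median was 0.23, against 0.70 for all genes. Irgm2, an immunity-related GTPase, was 2.10-fold and Tap1, a peptide transporter of antigen presentation, 1.93-fold lower, while Cxcl10 was 1.28-fold and Gbp3 1.15-fold higher. In duodenum 4 of 16 were higher and 1 lower, against 19.2% and 25.9% of all genes. The median was -0.03, and between -0.22 and 0.48 over the settings. Tap1 was 3.44-fold and Psmb8, an immunoproteasome subunit, 1.62-fold higher there, and Gbp7 was 1.33-fold and Cd274 1.34-fold lower. Ifng itself was under the floor on all 4 arrays.

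Glucocorticoid and amino acid responsive liver genes, a group in which Tdo2 is often placed, were near even in liver. Of 12, 1 was higher and 1 lower, against 13.5% and 12.1% of all genes (median -0.22). On the spiked control scale this median was 0.51, against 0.70 for all genes. Tat, the tyrosine aminotransferase classically induced together with Tdo2, gave 22279.5 in CA-AhR and 25992.9 in wild-type liver, 1.17-fold lower. Hal, histidase, was 2.45-fold lower and Cps1, of the urea cycle, 1.41-fold lower, while Ass1 was 1.72-fold and Per1 1.29-fold higher. In duodenum 3 of 10 were higher and 2 lower, against 19.2% and 25.9% of all genes. The median was 0.20, and between -0.04 and 0.54 over the settings. Nr3c1, the glucocorticoid receptor, gave 1397.1 against 3926.9, 2.81-fold lower, and its other probe sets ranged from at least 4.19-fold to 1.04-fold lower. The glucocorticoid response genes Tsc22d3 and Fkbp5 were 3.79-fold and 2.39-fold higher on their brightest probe sets. Another Fkbp5 probe set was 1.79-fold lower, and the other Tsc22d3 probe sets were 1.54-fold higher, 1.31-fold lower and at least 2.51-fold lower. Ass1 was 2.25-fold lower on its only probe set.

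AhR target genes gave the contrast for the members. In liver 6 of 8 were higher in CA-AhR and 0 lower, against 13.5% and 12.1% of all genes (median 2.29). Cyp1b1 and Cyp1a1 were highest, Cyp1a2 was 3.56-fold higher (62037.9 against 17430.2), Nqo1 2.36-fold higher and Xdh at a log2 ratio of -0.12. In duodenum 4 of 7 were higher and 0 lower, against 19.2% and 25.9% of all genes. The median was 1.03, and 0.20 with the mean ratio over measured probe sets. Xdh was 1.19-fold higher and Nqo1 1.33-fold lower there, neither past 1.5-fold. Cyp1b1 was 2.62-fold higher on its brightest probe set and 1.99-fold lower on the other measured one. Over the probe sets that represent the 8 measured members in liver, the highest ratio was that of Tdo2, 1.05-fold higher.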

How the data were processed

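Liver and duodenum RNA of wild-type and CA-AhR mice was measured on 4 arrays, grouped by the tissue and genotype that the labels name, 1 array per group. Each deposited value is a probe set's signal intensity, which the authors computed with MAS5, as the submitters' processing notes record. The software version is not given in the sources used. The mean without the lowest and highest 2% was 500.0 on each array, so ratios are relative to a global scaling, and the number of arrays limits precision. Nothing further was normalized. Gene names came from the platform annotation, with symbols updated by Entrez identifier from RefSeq (GRCm38.p6): 34958 had 1 symbol, 932 several and 9211 were not listed. Log2 ratios were computed with Python 3.11.15, numpy 2.4.6 and pandas 2.3.3, and the steps were tested on simulated data. The members, lists, markers and the rule for named genes (the 2 highest and 2 lowest of each list above the floor on both arrays, fixed names, and the 5 genes nearest to Tdo2 and to Ido1) were chosen with earlier results of these data known. Alternatives were 3 scalings, 3 floors and 4 ways to combine probe sets, of which 2 were added after the data were seen. Signals of _x_at, _s_at and _a_at probe sets can include related transcripts; 2 of the 16 are such.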

Additional observations from a re-analysis of the deposited data

Results flagged for a closer look

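Afmid was picked out because its ratios went opposite ways in the tissues, at a log2 ratio of -1.01 in liver and 0.92 in duodenum on the probe set that represents it. The difference between tissues was not tested, since each group holds 1 array. The other measured probe sets were at -0.63 and -0.52 in liver and at 0.19 (a bound) and 0.01 in duodenum.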

How the results depend on the processing

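No paired analysis was possible because each group holds 1 array and the arrays carry no shared replicate numbers. Between the wild-type tissues, 8 members were higher and 1 lower. The higher count was 7 using the mean of all probe sets (21.1% of all genes), where Kynu was at a log2 ratio of 0.49. It was also 7 without multi-transcript probe sets (21.3%), where Haao, with no other probe set, was not tested and the other calls stayed. The liver median of -0.23 became 0.39 on the spiked control scale, where the median of all genes was 0.70. Under the other settings it lay between -0.29 and -0.06. In liver, 0 members were higher and 2 lower as reported. The spiked control scale gave 4 higher and 0 lower, where 59.5% and 2.8% of all genes were so. The mean of all probe sets gave 1 and 1, against 12.6% and 12.2% of genes. A 20th percentile floor or no floor gave 1 higher each, against 18.7% and 20.3% of genes. The gene added was Ido1 (78.4 in CA-AhR against 32.1 in wild-type liver), which was not tested as reported. Afmid turned to 0.19 with the mean of all probe sets, which includes the probe set under the floor on all arrays. In duodenum, 1 was higher and 3 lower as reported. The lower count was 1 with quantile normalization, the spiked control scale, the array median scale and a 60th percentile floor. The shares of all genes lower were 19.4%, 18.5%, 11.6% and 18.3% in that order. Ido2 was not tested on the spiked control scale, and neither Ido2 nor Kmo was tested with the 60th percentile floor. The lower count was 5 with a 20th percentile floor or none, against 30.6% and 32.9% of genes. Kynu (19.9 in CA-AhR against 76.3 in wild-type duodenum), not tested as reported, entered there, and Ido2 passed 1.5-fold at -0.77. The lower count was 2 with the mean of all probe sets, without multi-transcript ones, and with the brightest probe set picked after raising to the floor. The shares were 26.4%, 27.9% and 26.1% of genes. Of the 3 lower genes, these settings left out Tdo2, Haao and Tdo2 in that order. The higher count was 2 with the 20th percentile floor or none, against 22.3% and 22.7% of genes, where Qprt (121.5 against 65.2) entered. It was 0 with the mean of all probe sets (15.7% of genes), where Afmid was not tested. It was also 0 with the mean ratio over measured probe sets (14.9%), where Afmid was at 0.37. The duodenum median of the members was -0.63 as reported, against -0.11 for all genes. Under the first 4 settings named for the lower count it became -0.25, -0.42, -0.22 and -0.19. The medians of all genes were then 0.04, -0.004, 0.30 and -0.05. The member median was -0.58 without multi-transcript probe sets, where Haao was not tested. It was also -0.58 with the brightest probe set picked after raising to the floor, where Tdo2 was not tested. The causes were not tested. Signals near the floor limit the duodenal ratios of Tdo2, Ido2 and Kmo.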

Other observations

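Marker lists not named above gave these counts. In CA-AhR liver, 5 of 9 measured enterocyte markers were 1.5-fold or more higher and 0 lower (median log2 ratio 0.79). The shares of all genes were 13.5% and 12.1%. Vil1, Lct and Slc15a1, among the higher ones, were under the floor in wild-type liver, so their ratios were bounds. Goblet cell markers were higher in 2 of 4 (median 1.06), and Paneth cell markers in 2 of 3 (median 0.93). Kupffer cell and macrophage markers, from cells that can also carry Kmo and Kynu, numbered 1 higher and 2 lower of 9 (median -0.35). Dendritic cell markers, from cells that can carry Ido1, numbered 4 lower and 1 higher of 6 in CA-AhR duodenum (median -0.71). Of all genes 25.9% were lower and 19.2% higher. Xcr1 and Flt3, among the lower markers, were under the floor in CA-AhR duodenum, so their ratios were bounds. The summed signal of the dendritic cell markers was 1658.4 in wild-type and 1309.2 in CA-AhR duodenum. B and plasma cell markers were lower in 2 of 5 cases there (median -0.57), endothelial markers in 2 of 6 (median -0.45), and smooth muscle markers were higher in 4 of 6 (median 0.78). Enteroendocrine markers, from cells of which only some use Tph1, numbered 4 higher and 1 lower of 6 in CA-AhR duodenum (median 0.86). Tph1 was 1.67-fold lower there.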
